A study of Mus musculus with 6 samples.

Results

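The tropomyosin genes Tpm1, Tpm2, Tpm3 and Tpm4 were followed exon by exon in podocytes, the epithelial cells that form the filtration slits of the kidney glomerulus. The members were all exonic parts, stretches of exon cut at every annotated exon boundary, whose Ensembl gene identifier maps to 1 of these 4 symbols. There were 131 such parts of 368092 in the files, in 4 of 36889 gene identifiers. Tpm1 had 49 parts, Tpm2 26, Tpm3 46 and Tpm4 10, and 117 of the 131 passed the filter on low counts for the exon test (47, 20, 40 and 10). The series set 3 libraries of genotype CD2BP2 Knockout (KO1, KO2 and KO3) against 3 of genotype Wildtype (WT1, WT2 and WT3), all labelled podocytes on a C57BL/6 background and sequenced as polyadenylated RNA. CD2BP2 carries a GYF domain and is found in the U5 particle of the spliceosome. The floxed allele, with a loxP site after exon 3 of the 7 exons, was made in R1/E embryonic stem cells and its selection marker was removed with a FLPO deleter strain. The labels' treatment text describes CD2BP2flox/flox MxCre+ mice and littermate controls given poly(I:C), aged 6 to 10 weeks, and cultured bone marrow macrophages. That goes against the podocyte label, and the Cre driver for podocytes is not named there.

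Tropomyosins are coiled-coil proteins that polymerise head to tail along actin filaments and set which myosins, cofilin and other proteins can bind them. Mammalian tropomyosin genes make isoforms by a common scheme, of which a gene may use only a part. An upstream promoter and first exon (1a) gives long forms that span 7 actin subunits, and an internal promoter and first exon (1b) gives short forms that span 6. Pairs of internal exons (2a or 2b, 6a or 6b) and the last coding exon (the 9 series) are used in exclusive choices. Here a pair of exons 2a and 2b was annotated in Tpm1 alone, and Tpm4 had 1 full-length coding transcript and no exclusive pair. The choice at exon 6 and at the last exon changes the faces that meet actin and the next tropomyosin, and such exons became textbook cases of regulated splicing in muscle and non-muscle cells. In podocytes the foot processes are built on bundled actin with synaptopodin, alpha-actinin and myosin.

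The exclusive exons are shown because the results turn on which of each pair was counted. They were read by transcript identifier and exon length from GENCODE M21 transcripts (build GRCm38). They are written 5′ to 3′ on the coding strand, with capitals marking the bases that differ from the partner exon of the same gene.
Tpm1 exon 2a (chr9:67048124-67048249, minus strand): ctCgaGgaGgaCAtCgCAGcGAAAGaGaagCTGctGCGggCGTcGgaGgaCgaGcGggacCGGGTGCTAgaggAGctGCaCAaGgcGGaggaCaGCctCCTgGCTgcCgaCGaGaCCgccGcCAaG
Tpm1 exon 2b (chr9:67047786-67047911, minus strand): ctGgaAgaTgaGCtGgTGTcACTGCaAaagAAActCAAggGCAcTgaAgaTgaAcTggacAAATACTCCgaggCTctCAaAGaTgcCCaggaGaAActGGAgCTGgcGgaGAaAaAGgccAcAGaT
Tpm1 exon 6a (chr9:67032466-67032541, minus strand): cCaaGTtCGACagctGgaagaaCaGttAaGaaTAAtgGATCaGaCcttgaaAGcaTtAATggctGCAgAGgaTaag
Tpm1 exon 6b (chr9:67031951-67032026, minus strand): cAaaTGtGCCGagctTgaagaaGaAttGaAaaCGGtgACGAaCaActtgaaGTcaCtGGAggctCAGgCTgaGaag
Tpm3 exon 6a (chr3:90088401-90088476, plus strand): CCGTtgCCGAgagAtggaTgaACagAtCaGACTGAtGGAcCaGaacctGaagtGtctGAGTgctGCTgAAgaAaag
Tpm3 exon 6b (chr3:90089048-90089123, plus strand): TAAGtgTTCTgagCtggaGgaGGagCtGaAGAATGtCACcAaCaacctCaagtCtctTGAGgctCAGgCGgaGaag
Tpm4 exon 6 (chr8:72146452-72146527, plus strand, no partner): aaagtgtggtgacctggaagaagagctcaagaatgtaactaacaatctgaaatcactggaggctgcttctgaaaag
Exons 2a and 2b of Tpm1 were identical at 60 bases and differed at 66 (47.6% identity). Exons 6a and 6b were identical at 56.6% of 76 bases in Tpm1, 53.9% in Tpm2 and 51.3% in Tpm3. Exon 6b was more alike across genes, with 73.7% to 76.3% identity among Tpm1, Tpm2 and Tpm3, against 61.8% to 65.8% for exon 6a. The single exon 6 of Tpm4 was 71.1% to 73.7% identical to the 6b exons and 43.4% to 55.3% identical to the 6a exons. The last coding exons of Tpm1 are shown because 1 of them carries the usage difference described below. They are the coding stretches of the proximal 79-base exon, of the stretch directly upstream of the distal last exon, and of the distal last exon 9d itself. The upstream stretch is called the extension here. No capitals are used since they were not aligned to each other.
Tpm1 proximal 79-base exon (chr9:67029664-67029742, minus strand): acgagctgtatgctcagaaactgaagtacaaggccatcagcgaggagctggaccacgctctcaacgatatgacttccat
Tpm1 coding end of the extension (chr9:67024495-67024565, minus strand): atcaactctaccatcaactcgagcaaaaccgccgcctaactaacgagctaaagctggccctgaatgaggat
Tpm1 coding end of exon 9d (chr9:67023362-67023441, minus strand): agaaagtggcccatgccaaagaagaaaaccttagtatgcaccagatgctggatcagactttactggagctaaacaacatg

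Each library held between 186022084 and 255554573 part counts in all. Gene levels are given as CPM, counts scaled to library size and composition. The targeted Cd2bp2 was at 61.0, 61.8 and 60.8 CPM in WT1, WT2 and WT3 and at 48.4, 47.3 and 51.0 in KO1, KO2 and KO3, with a log2 fold change of -0.32 (SE 0.05, edgeR adjusted p = 0.0297). KO libraries thus kept 79.9% of the mean WT level of the whole gene, which is a partial loss. The parts of exons 2 and 3, which come before the loxP site that follows exon 3, summed to 9.30, 8.58 and 8.35 CPM in WT and 5.35, 5.69 and 5.89 in KO, or 64.6% of the WT mean, and those of exons 4 to 7 to 82.9%. Transcripts with the exons before that site were therefore present in all 3 KO libraries, and WT and KO are used here as the names of the labelled genotypes. The position of the other loxP site is not given in the labels. The podocyte markers were high in every library: the summed CPM of 12 podocyte markers was 22566 to 25477 in WT and 20219 to 22090 in KO, and 1 of the 12, the nephrin gene Nphs1, fell by edgeR (log2 fold change -0.53, adjusted p = 0.035), against 3.37% of all genes. DESeq2 called 6 of the 12 (5 fell and 1 rose), against 14% of all genes, and limma-voom called 1, against 2.49%. No podocyte marker passed by edgeR with the replicate number as a block or with any single library left out. KO2 stood apart in the markers of loop, distal tubule and collecting duct, with a summed 1419 CPM against 180.2 to 528.9 in the other 5 libraries. It stood apart as well in the share of counts that lay in parts of retained-intron transcripts alone, 0.698% against 0.854% to 0.922% in the others (16252 parts of genes with a full-length coding transcript). Separate animals are not stated in the labels, so p-values cover the spread among these samples alone, and that spread may be technical. In bulk RNA, fewer cells of a type and less RNA per cell cannot be told apart.

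At the level of whole genes, none of the 4 tropomyosins passed the test, and the levels of WT and KO overlapped for each. Tpm1 (ENSMUSG00000032366; NCBIM37 chromosome 9, 66870397 to 66897213, minus strand), the gene with the most annotated isoforms of the 4, stood at 479.6, 427.6 and 468.2 CPM in WT1, WT2 and WT3 and at 455.5, 530.9 and 481.7 in KO1, KO2 and KO3. Its log2 fold change, KO against WT, was 0.09 (SE 0.08, edgeR adjusted p = 0.517), and 0.022 without KO2. KO2 was the highest library and WT2 the lowest, with the other 4 between them.

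Tpm4 (ENSMUSG00000031799; chromosome 8, 74658874 to 74677041, plus strand), which makes a short non-muscle form, had 511.9, 482.1 and 548.2 CPM in WT and 442.5, 507.6 and 489.3 in KO (log2 fold change -0.10, SE 0.08, adjusted p = 0.480). Tpm3 (ENSMUSG00000027940; chromosome 3, 89876571 to 89904824, plus strand), whose short forms are widespread in non-muscle cells, had 274.2, 264.3 and 269.2 CPM in WT and 264.8, 285.4 and 332.0 in KO (0.13, SE 0.09, adjusted p = 0.432, with a fold change of 0.027 without KO3). KO1 lay inside the narrow WT range of Tpm3 and KO3 lay farthest above it. Tpm2 (ENSMUSG00000028464; chromosome 4, 43527583 to 43536637, minus strand), a gene best known from smooth and skeletal muscle, had 48.6, 46.01 and 60.3 CPM in WT and 47.7, 53.8 and 54.7 in KO (0.01, SE 0.11, adjusted p = 0.968). Its highest library was a WT one. Over all genes the same test called 3.37% (666 of 19742; 1.62% higher and 1.76% lower in KO), 22.6% had an unadjusted p under 0.05 and 28.9% had groups that did not overlap. The 4 tropomyosins contributed 0 to each of these, and DESeq2, which called 14% of its 18202 genes, and limma-voom called none of them either.

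**Figure D1:**
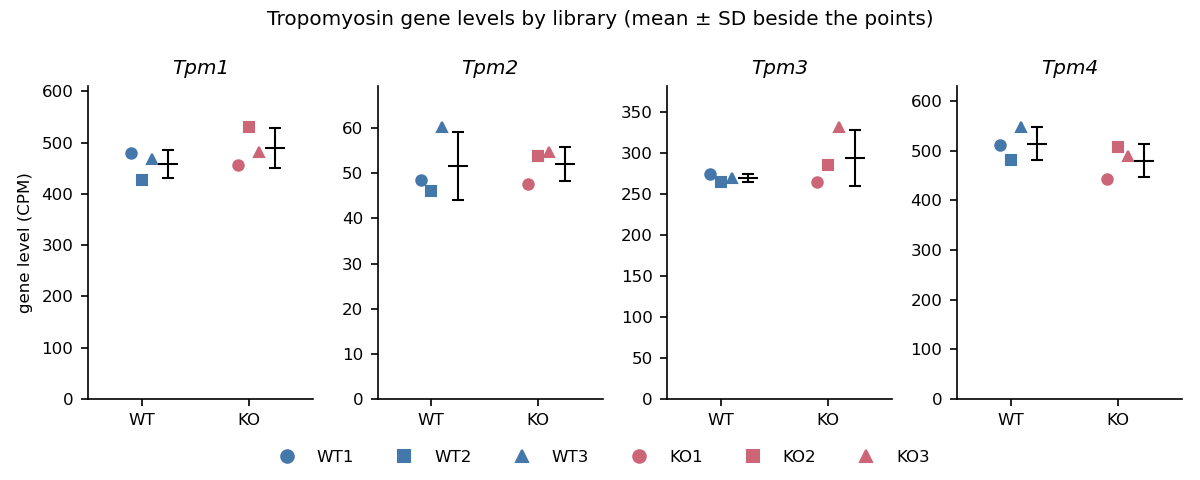
Gene level in CPM (vertical axes, each from 0 and on its own scale) of Tpm1, Tpm2, Tpm3 and Tpm4 in each library, with WT in blue, KO in red and the mean ± SD (n = 3) in black beside the points. WT and KO points overlap in every panel, and KO3 is the highest Tpm3 library at 332.0 CPM.

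The makeup of the tropomyosin pool was compared per base, using the median count per base of the coding parts that every full-length coding transcript of a gene contains (6 parts in Tpm1, 8 in Tpm2, 11 in Tpm3 and 7 in Tpm4). A read that spans several parts is counted in each, so short parts have raised densities and the pool shares are approximate, while the same parts are compared between WT and KO. Tpm1 gave 35.7%, 33.6% and 34.1% of the pool in WT1, WT2 and WT3 and 37.04%, 37.3% and 33.9% in KO1, KO2 and KO3. Tpm4 gave 33.4%, 33.997% and 35.3% in WT and 30.4%, 30.9% and 30.8% in KO. The Tpm4 shares did not overlap, with a mean difference of -3.52 percentage points (two-sided exact permutation p = 0.1, as small as 3 against 3 libraries can give, and 0.4 adjusted over the 4 genes).

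Tpm3 gave 27.6%, 29.1% and 26.3% of the pool in WT and 28.8%, 28.4% and 31.6% in KO, which overlap (p = 0.3, exact permutation). Tpm2 gave 3.35%, 3.24% and 4.29% in WT and 3.81%, 3.37% and 3.60% in KO, and was the lowest of the 4 in every library. In WT the Tpm1 and Tpm4 shares overlapped and both lay above Tpm3. In KO the Tpm1 shares lay above those of Tpm4 and Tpm3, and these last overlapped each other. These orders compare genes whose shared parts differ in length, so they hold for the shares alone. Exon 3 is a part of 134 bases in both Tpm4 and Tpm3. It had 7896, 7168 and 8192 counts for Tpm4 in KO1, KO2 and KO3 and 6030, 5080 and 5589 for Tpm3. Tpm4 was thus the higher there in each KO library, though its exon 3 overlaps a gene on the other strand, as described below.

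**Figure D2:**
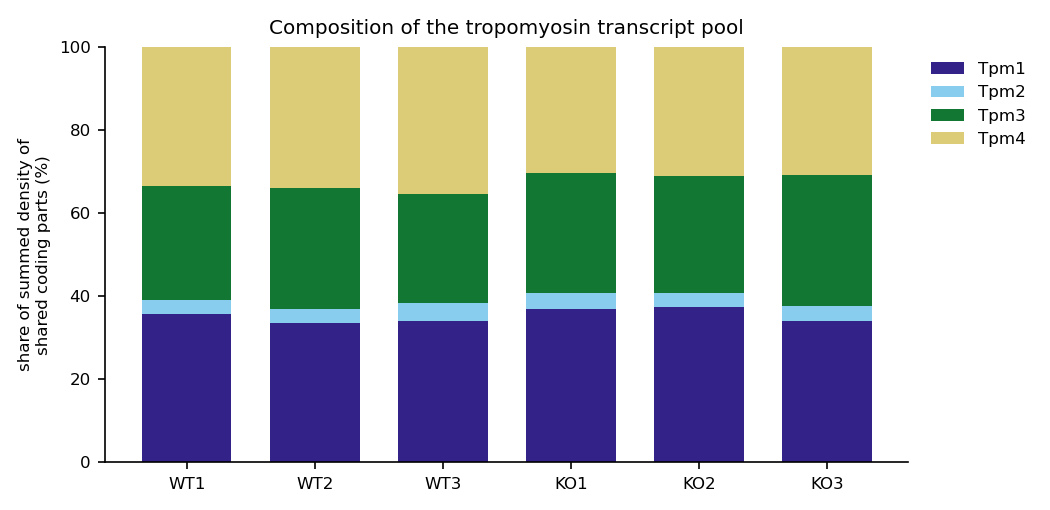
Share of the summed per-base density of shared coding parts (vertical axis, %) that came from each tropomyosin gene, 1 stacked bar per library. The top block, Tpm4, is 33.4% to 35.3% in WT and 30.4% to 30.9% in KO, and Tpm2 is a thin band in all 6 bars.

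Exon usage, the change of a part relative to the rest of its gene, was tested with diffSpliceDGE in edgeR. Of the 4 genes Tpm1 passed at the level of the gene (Simes adjusted p = 0.0383) and Tpm2, Tpm3 and Tpm4 did not (adjusted p = 1, 1 and 1). Over all genes 0.383% were called (58 of 15145). Of 47 tested Tpm1 parts, 3 passed with lower usage in KO and 0 with higher, against 0.0627% of all parts (148 of 236061), with 0.022% for lower and 0.0407% for higher usage. None of the 70 tested parts of the other genes passed. At an unadjusted p under 0.05 there were 12 of 47 parts of Tpm1 (10 lower and 2 higher in KO), 1 of 20 of Tpm2, 5 of 40 of Tpm3 and 0 of 10 of Tpm4, against 1.16% of all parts. The part shares of WT and KO did not overlap for 10, 0, 6 and 1 parts of the 4 genes (2 higher and 15 lower in KO), against 11.2% of all parts tested (5.48% higher and 5.69% lower in KO). Neighbouring parts share reads, so these counts are not counts of independent events.

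The 3 called Tpm1 parts lie at the 3′ end of the gene. Part 7 (NCBIM37 chromosome 9, 66871249 to 66872130) and part 9 (66872133 to 66872372) lie directly upstream of exon 9d. They are called its extension here by position. Part 9 holds the 71-base coding end printed above. It occurs in 3 full-length coding transcripts, part 8 in 2 and part 7 in 1. Transcripts without part 7 do not run through to exon 9d, so part 9 also serves as a last exon apart from 9d. Part 7, 882 bases long, held 1.61%, 1.61% and 1.58% of Tpm1 counts in WT1, WT2 and WT3 and 1.04%, 0.779% and 1.39% in KO1, KO2 and KO3. Every KO library was below every WT library, KO2 the farthest and KO3 the least far. Its usage was lower in KO by a log2 change of -0.60 (adjusted p = 0.0127). Part 9, of 240 bases, held 0.559%, 0.666% and 0.552% in WT and 0.404%, 0.281% and 0.470% in KO, again without overlap (usage -0.63, adjusted p = 0.0430). Part 8, the 2 bases between them, had a usage change of -0.69 and an adjusted p of 1.

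Part 16 (66877727 to 66878835), the longest part of Tpm1 with 1109 bases, occurs in no full-length coding transcript and follows exon 8 in transcript order. It held 1.77%, 1.79% and 1.59% of Tpm1 counts in WT1, WT2 and WT3 and 1.13%, 0.816% and 1.51% in KO1, KO2 and KO3. The groups did not overlap, though KO3 lay close to WT3. The usage change was -0.59 (adjusted p = 0.0141). Between part 16 and part 9 lie exons called proximal last exons here by position, which give Tpm1 proteins with another carboxy end. The 79-base exon printed above, part 15, occurs in 4 full-length coding transcripts and the adjoining part 14 in 1. The 79-base exon need therefore not be the final exon of its transcripts. It held 0.357%, 0.443% and 0.359% in WT and 0.303%, 0.237% and 0.330% in KO, with no overlap (usage -0.42, adjusted p = 1). Part 14, an 816-base stretch found in 1 full-length coding transcript, held 1.99%, 1.85% and 1.61% in WT and 1.34%, 1.11% and 1.57% in KO (usage -0.45, adjusted p = 0.4395).

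All 10 tested parts from part 16 to part 7 had a lower mean share in KO, against 51% of all parts tested in the series, and KO2 was the lowest library in all 10. This stretch was bounded by called parts and holds all 3 of them, and neighbouring parts share reads. Its count therefore describes the stretch and is no test. In distal exon 9d, which the extension adjoins, no part passed. Its 820-base part 6 held 22.1%, 21.99% and 21.6% of Tpm1 counts in WT and 22.3%, 22.6% and 22.04% in KO (usage 0.03, adjusted p = 1). The shorter tested parts of exon 9d had slightly lower mean shares in KO, with WT and KO overlapping: 0.375% in WT and 0.357% in KO for part 5, 0.325% and 0.311% for part 4, and 0.0806% and 0.0725% for part 3. KO2 was the lowest library in parts 5 and 4. The call for Tpm1 was lost without any of 5 libraries: the Simes adjusted p was 0.407 with WT1 left out, 1 for WT2, 0.2946 for WT3, 0.346 for KO1 and 1 for KO2, with 0 parts called in each of these fits. Leaving out KO2 moved the usage changes of parts 7 and 16 to -0.39 and -0.37. Without KO3 the Simes adjusted p was 9.7e-05 with 3 parts called, and with the gene total as offset it was 0.4279 with 0 parts called.

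**Figure D3:**
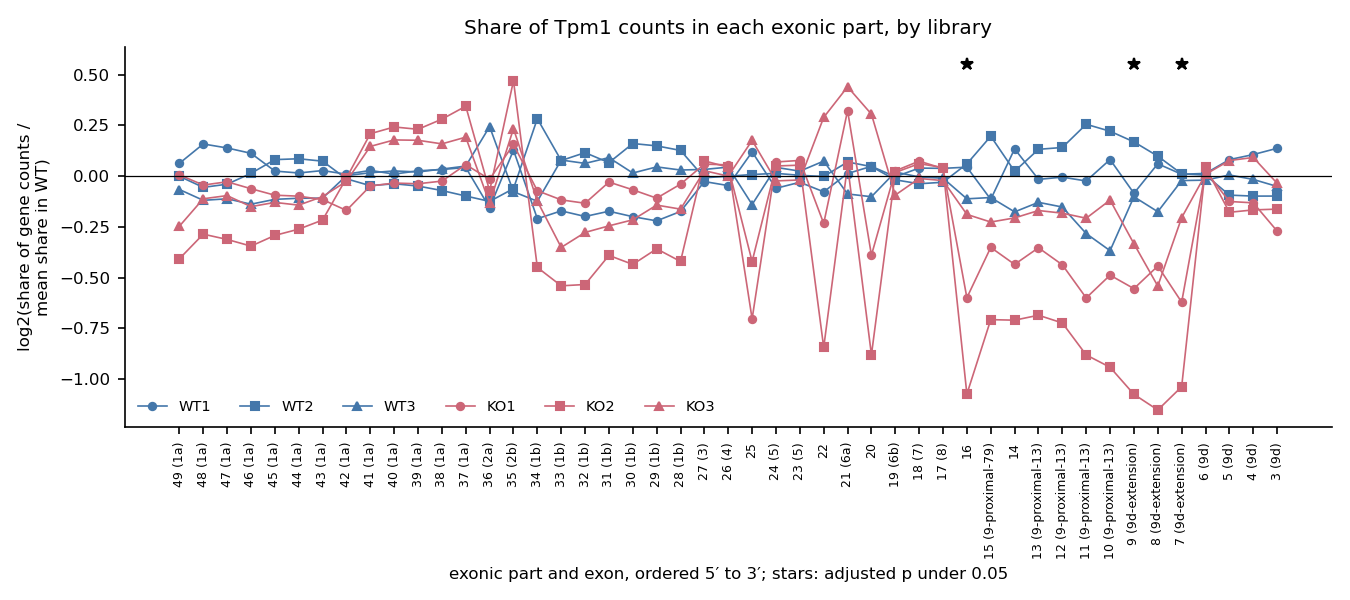
Each tested Tpm1 part in 5′ to 3′ order (horizontal axis, part number with its exon) against log2 of its share of Tpm1 counts over the mean WT share (vertical axis), 1 line per library, with stars on the 3 parts past the test. The labels 9-proximal-79 and 9-proximal-13 mark the proximal last exons. KO2, the red squares, drops lowest from part 16 to part 7, and all 6 lines run close together at part 6 of exon 9d.

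As a share per base, the extension made up 7.95%, 9.38% and 8.03% of extension plus exon 9d in WT1, WT2 and WT3 and 5.83%, 4.08% and 6.80% in KO1, KO2 and KO3. The groups did not overlap (difference -2.89 percentage points, exact permutation p = 0.1). The proximal 79-base exon made up 14.3%, 17.3% and 14.7% of itself plus exon 9d in WT and 12.4%, 9.81% and 13.5% in KO, also without overlap (difference -3.57 points, exact permutation p = 0.1). Of 10 such pairs in Tpm1, Tpm2 and Tpm3, 4 had groups that did not overlap, beside 11.2% for single part shares over the series, and no adjusted p over the 10 pairs was below 0.25. Single part shares are another measure, and both Tpm1 pairs above contain exon 9d, so this comparison cannot show an excess. The pairs are not all exclusive. The Tpm1 extension runs on into exon 9d where part 7 is included, and the Tpm2 part taken for 9d also occurs with exon 9a.

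At the 5′ end of Tpm1, the long forms start from exon 1a and take exon 2a or 2b, and the short forms start from exon 1b. Coding part 37 of exon 1a held 3.52%, 3.19% and 3.54% of Tpm1 counts in WT and 3.55%, 4.34% and 3.90% in KO. Coding part 28 of exon 1b held 1.91%, 2.35% and 2.20% in WT and 2.10%, 1.61% and 1.93% in KO. Exon 1b made up 29.2%, 35.8% and 32.1% of both first exons per base in WT and 30.9%, 21.96% and 27.2% in KO, where KO1 fell within the WT range (difference -5.65 points, exact permutation p = 0.2, and a difference of -3.29 without KO2). First exons lie at the 5′ end, where counts per base were lower than in the internal exons, so these shares compare libraries and do not give molecule numbers.

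Exon 2b was the more used of its pair in all 6 libraries. It held 3.397%, 2.98% and 2.95% of Tpm1 counts in WT1, WT2 and WT3 and 3.46%, 4.31% and 3.66% in KO1, KO2 and KO3, and KO1 exceeded WT1 by a small margin while KO2 was the highest (usage 0.30, adjusted p = 1). Relative to the shared coding parts, exon 2b stood at 24.9%, 22.9% and 22.3% in WT and 25.03%, 31.2% and 27.8% in KO, without overlap (exact permutation p = 0.1, and 0.383 adjusted over 23 alternative exons). Of these 23 exons, 6 did not overlap, beside 11.2% for single part shares over the series, which are another measure. Parts 15, 13 and 9 of Tpm1 are among the 6 and lie in the stretch described above, so that count cannot show an excess. Exon 2a, the exon of smooth muscle Tpm1, made up 24.6%, 27.5% and 33.1% of exons 2a and 2b in WT and 26.05%, 21.4% and 23.5% in KO (difference -4.75 points, exact permutation p = 0.2, and a difference of -2.39 without WT3). WT3 had the highest exon 2a share of the 6 libraries, and KO1 lay inside the WT range.

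For the exclusive exons at position 6, exon 6b was the major choice in Tpm1. Exon 6a made up 13.1%, 13.6% and 12.1% of exons 6a and 6b in WT1, WT2 and WT3 and 15.4%, 13.2% and 17.7% in KO1, KO2 and KO3. KO2 lay among the WT libraries while KO1 and KO3 were above all of them (difference 2.51 points, exact permutation p = 0.2, and a difference of 1.38 without KO3). Exon 6a alone had a usage change of 0.27 (adjusted p = 1), and exon 6b of -0.02. The 6 shared parts of Tpm1, in exons 3, 4, 5, 7 and 8, had usage changes between 0.02 and 0.05, whereas the 37 tested alternative parts that occur in a full-length coding transcript ranged from -0.69 to 0.30 with a median of -0.17. All parts tested in the series had a median of -0.002.

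In Tpm2 the balance at position 6 was the other way round from Tpm1, with exon 6a as the major choice. Exon 6b made up 5.62%, 4.30% and 4.17% of exons 6a and 6b in WT and 3.57%, 5.67% and 5.11% in KO (difference 0.09 points, exact permutation p = 0.9). KO1 was the lowest and KO2 the highest. Of the last exons, 9a and 9d, part 2 of 9d had more counts per base than part 5 of 9a in every library. Part 2 adjoins exon 9a and occurs in all 3 full-length coding transcripts, of which 2 contain part 5. Its counts are thus not those of transcripts without 9a alone, and this pair is no share of exclusive choices. Part 5 of exon 9a made up 9.37%, 8.03% and 9.89% of parts 5 and 2 per base in WT1, WT2 and WT3. In KO1, KO2 and KO3 it made up 4.72%, 2.73% and 7.66%. Every KO library was below every WT library, with a difference of -4.06 points (exact permutation p = 0.1, 0.25 adjusted over the 10 pairs). For exon 9a the pair took its first part alone, part 5, and rests on few reads. Part 5 had 47 counts in WT1 and 35 in KO1, and its usage change was -0.85 with an adjusted p of 1. As shares of Tpm2 counts, parts 5, 4 and 3 of exon 9a each overlapped between WT and KO. The 820-base part 3 held 2.17%, 1.96% and 1.79% in WT and 1.76%, 1.35% and 1.81% in KO (usage -0.26). Tested parts of Tpm2 other than part 5 had usage changes from -0.43 to 0.06, and its 8 shared parts from -0.0004 to 0.06.

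In Tpm3 the short forms were the ones detected. The 3 parts of exon 1a and the exon 2 of the long forms together had 0 counts in WT1 and WT2, 1 in each of WT3, KO1 and KO2, and 4 in KO3. A count of 0 allows a share of Tpm3 counts of up to 0.00376% to 0.0063% per part, depending on the library (3 counts of the gene's total, for counting error only). Coding part 9 of exon 1b held 5.61%, 6.59% and 6.69% of Tpm3 counts in WT and 6.70%, 6.31% and 5.49% in KO.

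Exon 6a was the major choice of Tpm3. Part 30 of exon 6b held 0.822%, 0.952% and 0.962% of Tpm3 counts in WT1, WT2 and WT3 and 0.779%, 0.759% and 0.559% in KO1, KO2 and KO3. As a pair per base, exon 6b made up 21.01%, 21.6% and 22.8% of exons 6a and 6b in WT and 18.6%, 20.2% and 16.8% in KO. The groups did not overlap, and here KO3 was the lowest library and KO2 the nearest to WT (difference -3.26 points, exact permutation p = 0.1, 0.25 adjusted over the 10 pairs). The usage changes of the 30-base and 46-base parts of exon 6b were -0.44 and -0.40 (adjusted p = 1 for both). Exon 9a of Tpm3 made up 8.67%, 8.996% and 7.56% of exons 9a and 9d in WT and 8.62%, 5.30% and 6.56% in KO (exact permutation p = 0.2), and the middle last exon 1.69%, 2.31% and 2.86% of itself and 9d in WT and 2.22%, 0.866% and 1.78% in KO (exact permutation p = 0.4).

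**Figure D4:**
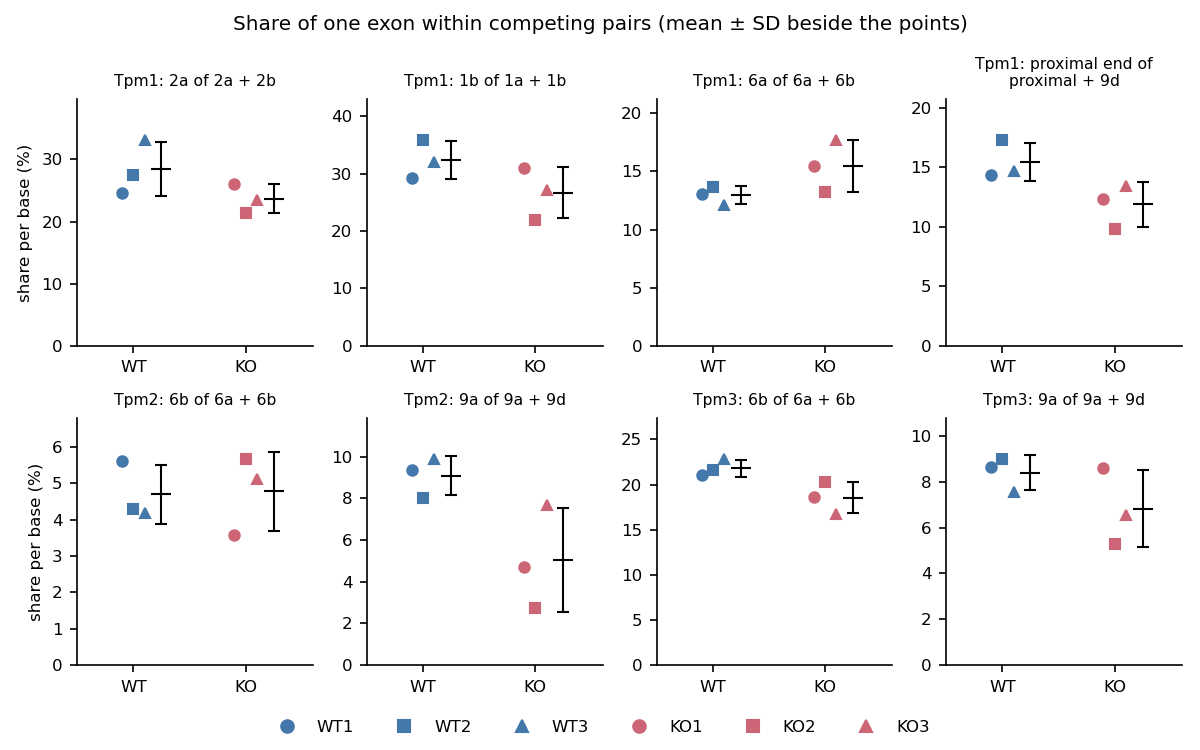
Share per base (vertical axes, %, from 0) of 1 exon within 8 of the 10 competing exon pairs of Tpm1, Tpm2 and Tpm3, by library, with WT in blue, KO in red and the mean ± SD (n = 3) in black. The groups do not overlap for the Tpm1 proximal last exon, Tpm2 exon 9a (part 5 only) and Tpm3 exon 6b, and they overlap in the other 5 panels.

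The distal last exon of Tpm3 divided the libraries across the genotypes. Part 43, a 38-base stretch of exon 9d, was the Tpm3 part with the smallest p of the usage test. It held 0.868%, 0.334% and 0.315% of Tpm3 counts in WT1, WT2 and WT3 and 0.316%, 0.831% and 1.11% in KO1, KO2 and KO3. WT1, KO2 and KO3 were high, and WT2, WT3 and KO1 low (usage 0.62, adjusted p = 1, and a usage change of 0.1966 without KO3; without WT1 a change of 1.27 with adjusted p = 0.00346, when the gene passed as well with a Simes adjusted p of 0.01025). All of exon 9d held 30.1%, 21.4% and 21.98% of Tpm3 counts in WT and 22.5%, 29.5% and 34.9% in KO, the same 3 libraries being high. A processed copy of Tpm3 on another chromosome, Tpm3-rs7 (NCBIM37 chromosome 14, 113713830 to 113715935), had 1569, 2772 and 3740 counts in WT and 4484, 1893 and 228 in KO. That is 3.08%, 5.82% and 6.10% of the Tpm3 count in WT and 6.53%, 3.02% and 0.286% in KO, so the copy was low in the libraries in which exon 9d was high. All 6 libraries are labelled C57BL/6, and whether they share 1 strain background at these loci was not tested.

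Reads of Tpm3 and of this copy could be split between them where their sequences are alike, so Tpm3 values are uncertain to that extent. How alike the sequences are was not measured here. Exon 9d and the copy together held 32.1%, 25.7% and 26.5% of the counts of both genes in WT and 27.3%, 31.6% and 35.04% in KO, with the same libraries high. With the copy's counts added to Tpm3, an alternative chosen after seeing the data, the log2 fold change of the gene was 0.10 (edgeR adjusted p = 0.442). The copy was chosen for mention after its values were seen.

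**Figure D5:**
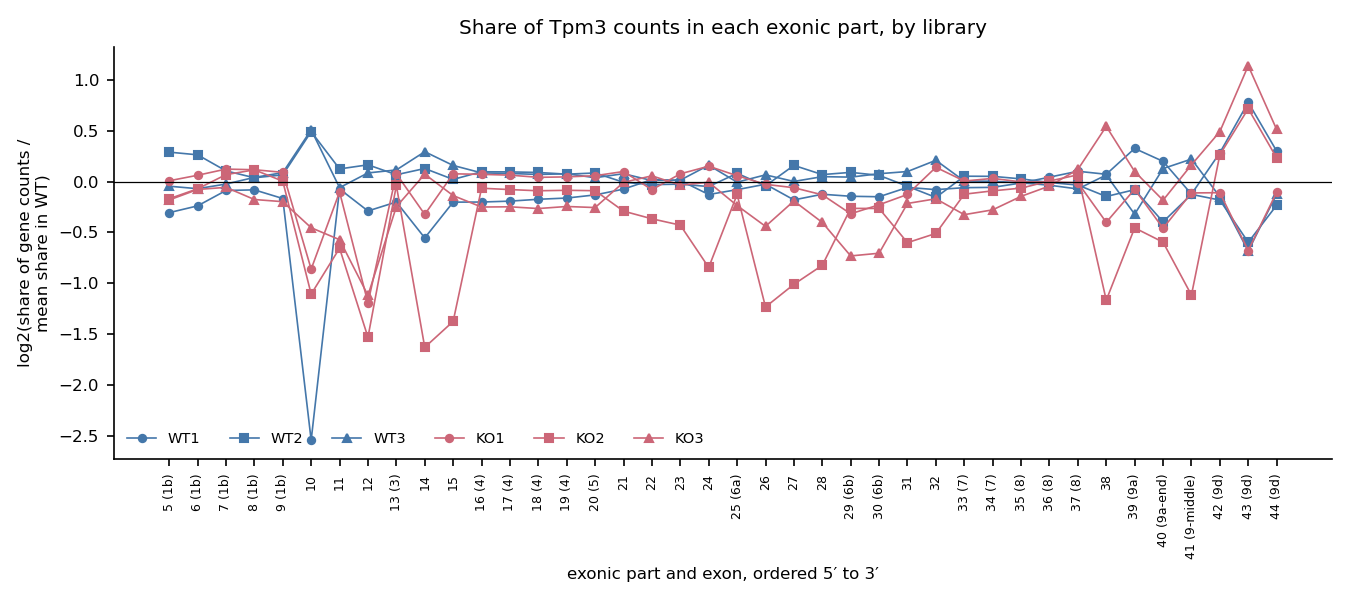
Each tested Tpm3 part in 5′ to 3′ order (horizontal axis, part number with its exon) against log2 of its share of Tpm3 counts over the mean WT share (vertical axis), 1 line per library. At parts 42 to 44 of exon 9d the lines of WT1, KO2 and KO3 lie above those of WT2, WT3 and KO1, and KO2 is low over the parts with no exon name.

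The Tpm4 exons had nearly even shares across the libraries. Tpm4 has 1 full-length coding transcript, no exclusive pair and a terminal part of 1401 bases that held 50.6%, 49.7% and 49.1% of its counts in WT1, WT2 and WT3 and 50.1%, 50.4% and 50.2% in KO1, KO2 and KO3. First exon 1b held 4.48%, 5.08% and 5.24% in WT and 4.89%, 4.52% and 5.05% in KO. The usage changes of its 9 parts in the coding transcript were between -0.04 and 0.01, and exon 6, printed above, had -0.02. Part 1, outside that transcript, had -0.53 on 13 counts in WT1 and 11 in KO1. Exon 3 (part 3, 134 bases) lies inside a part of the unnamed gene ENSMUSG00000079609 on the other strand, which had 6130 counts against 6025 for exon 3 in WT1 and 8335 against 8192 in KO3, so reads of the strands cannot be told apart there.

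Parts that occur in no full-length coding transcript of a tropomyosin gene had lower usage in KO for each of the 21, of 25, that passed the filter on low counts (4 in Tpm1, 1 in Tpm2, 15 in Tpm3 and 1 in Tpm4; median -0.34, and 1 of the 21 called). Of all parts tested in the series 51% had lower usage. Many of the 21 adjoin each other and share reads, and all were measured in the same 6 libraries. They are thus not independent observations, and their count is a description and no test. Among the 10619 tested parts found in retained-intron transcripts alone, 55.7% had a lower mean share in KO. KO2 was the lowest of the 6 libraries in 19 of the 21 tropomyosin parts and in 47.3% of the retained-intron parts of the whole series, against 19.5% of all parts. Summed over each gene, such parts held 2.64%, 2.68% and 2.45% of Tpm1 counts in WT1, WT2 and WT3 and 1.83%, 1.30% and 2.58% in KO1, KO2 and KO3. KO3 lay inside the WT range (difference -0.69 points, exact permutation p = 0.2, and a difference of -0.39 without KO2). For Tpm3 they held 4.92%, 5.24% and 5.56% in WT and 5.18%, 3.29% and 4.79% in KO (difference -0.82 points, exact permutation p = 0.2, and a difference of -0.26 without KO2). For Tpm2 and Tpm4 they held under 1% in every library. In Tpm2 they held 0.288%, 0.241% and 0.226% in WT and 0.170%, 0.0931% and 0.396% in KO (exact permutation p = 0.8). KO3 was thus above every WT library there. In Tpm4 they held 0.0137%, 0.0161% and 0.0120% in WT and 0.00958%, 0.00718% and 0.0119% in KO (exact permutation p = 0.1), with KO3 close to WT3. The tubule markers of KO2 and its low share of retained-intron parts moved with these values, and their part in the result was not tested.

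The partners of tropomyosin were followed in 6 lists of genes, against a background over all genes of 3.37% called by edgeR, 2.49% by limma-voom and 14% by DESeq2, and of 22.6% with an unadjusted edgeR p under 0.05. None of 18 tested thin filament partners, such as tropomodulins, caldesmon and troponins, passed in edgeR, limma-voom or DESeq2, and 0 had an unadjusted p under 0.05 in edgeR. Among them the caldesmon gene Cald1 had a log2 fold change of 0.17 (adjusted p = 0.261) and the tropomodulin gene Tmod1 one of -0.17 (adjusted p = 0.2502). Among 15 myosin II genes and regulators, 0 passed by edgeR and by limma-voom and 2 by DESeq2, while 4 had an unadjusted edgeR p under 0.05, counts near those shares, with -0.25 for the myosin phosphatase subunit gene Ppp1r12a and -0.12 for the kinase gene Rock1. Among 13 SRF and MRTF factors and targets, 0 passed by edgeR and by limma-voom and 1 by DESeq2, while 3 had an unadjusted edgeR p under 0.05, again near the shares over all genes. In that list the matricellular gene Ccn2 had -0.40 (adjusted p = 0.109) and Srf itself -0.28 (adjusted p = 0.150).

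Of 19 actins and filament crosslinkers, Palld, which encodes the actin bundling protein palladin, fell. It was at 214, 251.5 and 204.6 CPM in WT and 136.8, 120.9 and 136.0 in KO (log2 fold change -0.77, adjusted p = 0.0219). The podocyte actin organiser Synpo had -0.46 (adjusted p = 0.0712). Of 33 genes for nucleation, capping and severing of filaments, the formin gene Daam2 fell from 541.0, 537.6 and 544.3 CPM to 361.6, 375.2 and 341.9 (-0.59, adjusted p = 0.0097), and the formin gene Fhod3 rose from 8.74, 5.45 and 6.03 CPM to 14.1, 20.6 and 14.6 (1.29, adjusted p = 0.0443). Of 29 regulators of tropomyosin splicing, Rbfox1, which encodes an RNA-binding protein that acts on alternative exons, rose by edgeR from 0.657, 0.522 and 0.601 CPM to 1.09, 1.87 and 1.45 (1.30, adjusted p = 0.0456). In that list limma-voom called 0 genes, as did edgeR with the replicate number as a block and with any single library left out, so the call of Rbfox1 was lost in each. DESeq2 called 6 of the 29 (3 rose and 3 fell). The others did not pass by edgeR, among them the quaking gene Qk (-0.27, adjusted p = 0.0581) and Celf1 (-0.24, adjusted p = 0.103). The medians of the lists ran from -0.11 for the splicing regulators to 0.03 for the thin filament partners, against 0.01 over all genes. In the actin, filament nucleation and splicing lists, 3 of 19, 7 of 33 and 10 of 29 genes had an unadjusted edgeR p under 0.05, against 22.6% over all genes. The lists held 4 calls in all by edgeR, and DESeq2 made 15. Both counts lie near the shares over all genes, 3.37% by edgeR and 14% by DESeq2. The edgeR count was 0 with the block, 2 without WT3 or KO3, 1 without KO1 or KO2 and 0 without WT1 or WT2.

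Markers of other cell types that make tropomyosin were measured beside these values, against the same shares over all genes. None of 14 mesangial and smooth muscle markers passed in edgeR or DESeq2 (1 had an unadjusted edgeR p under 0.05), and their summed level was 2999 to 3324 CPM in WT and 2795 to 3402 in KO. The 5 striated muscle markers that could be tested summed to 4.05 to 7.53 CPM in WT and 4.51 to 6.20 in KO. Of 7 fibroblast markers Col1a2 rose (1.98, adjusted p = 0.00554), from 541.6, 658.9 and 484.2 CPM in WT to 2078, 2137 and 2422 in KO. The other 6 did not pass, with log2 fold changes from -0.26 for Lum to 0.68 for Thy1, and they summed to 123.2 to 159.3 CPM in WT and 153.5 to 184.2 in KO. The list median was 0.18. Of 10 macrophage markers Lyz2, Spi1, Tyrobp and Ctss rose, with a summed level of 96.6 to 127.6 CPM in WT and 190.2 to 207.5 in KO. Of 10 proximal tubule markers Slc34a1 and Slc22a12 rose, of 10 markers of loop, distal tubule and collecting duct Avpr2, and of 6 parietal epithelium markers Pax8. DESeq2 called 7 macrophage, 4 proximal tubule, 4 loop, distal tubule and collecting duct, and 3 parietal markers, all higher in KO. An unadjusted edgeR p under 0.05 was found for 8, 5, 8 and 3 of these lists' genes, and the list medians were 0.85, 0.53, 1.63 and 0.698, against 0.01 over all genes. With the replicate block edgeR called 1 macrophage marker and 0 in the other 3 lists. With 1 library left out it called 0 macrophage markers without WT2 and 1 without each of the others, and in the other 3 lists 0, except 2 proximal tubule markers and 1 parietal marker without KO3. Of 10 endothelial and 6 platelet and erythroid markers none passed in edgeR, against 1 and 0 in DESeq2, and 1 and 0 had an unadjusted edgeR p under 0.05. The part of these cells in the tropomyosin values was not tested.

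The genes whose levels across the 6 libraries were most like each tropomyosin, by Pearson r of log2 CPM among 8601 genes, are a description of 6 points that share their libraries. For Tpm1 they were the aggregate of Gm15941 and Ncald (r = 0.98), Rtca (0.98) and Smc1a (0.97). For Tpm2 they were Tln1 (0.99), the talin gene that lies 7753 bases from Tpm2 on chromosome 4, Coro1c (0.99), which encodes an actin-binding coronin, and the aggregate of Cbx6, Npcd and Nptxr (0.97). For Tpm3 they were the aggregate of Eml2 and Mir330 (0.97), Cplx2 (0.96) and S100a16 (0.96), and for Tpm4 Rfk (0.98), the aggregate of Leng1 and Tmc4 (0.97) and Sparc (0.96), the gene of a matricellular protein.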

How the data were processed

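Polyadenylated RNA was measured in 6 libraries, 3 labelled knockout and 3 labelled wild type. Per the file headers, the deposited tables list exonic parts of Ensembl 67 (NCBIM37), each with a raw read count, the covered bases, the length and the covered fraction, as the authors made them. TopHat 1.4.1 is named in the submitters' processing notes, with the human build GRCh37, which goes against these headers. Which program counted the reads, and with which strand setting, is not stated in the labels. Symbols, transcript types and exon sequences came from GENCODE M21 (GRCm38), matched by identifier.

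Gene counts were sums over parts. They were tested with edgeR 4.0.16 (TMM, filterByExpr, quasi-likelihood, no covariates, all genes) in R 4.3.3, and usage with diffSpliceDGE. Calls had a p under 0.05 after Benjamini-Hochberg adjustment. A full-length coding transcript is one of the GENCODE basic set typed as protein coding. For shares, two-sided exact permutation tests were run in SciPy 1.17.1. The tests were also run on simulated counts, drawn independently for each gene or part at a fixed dispersion. Neighbouring parts of real genes share reads, which that setting leaves out, so it lends no support to the p-values of such parts. DESeq2 1.42.0, limma 3.58.1, other filters, RLE, a replicate block, other part sets and leaving out each library were alternatives. The covered fraction served as a check: all 47 tested Tpm1 parts and all 10 of Tpm4, 17 of 20 of Tpm2 and 36 of 40 of Tpm3 were fully covered in every library. Named were the 4 genes, the parts past the test or with the smallest p, the alternative coding exons, list members past the test or up to 3 with the smallest p, Cd2bp2, and the 3 genes most alike to each member. The members and lists were chosen with earlier results of these data known. Rbm4 and Hbb-b1 were not matched.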

Additional observations from a re-analysis of the deposited data

How the results depend on the processing

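Depth was not the limit for the abundant exons, whereas Tpm2 exon 9a and Tpm3 exons 1a and 2 rested on few reads, and 3 against 3 libraries cannot give an exact p below 0.1. The call of Tpm1 in the usage test was lost with a replicate block (Simes adjusted p = 0.2416, 0 parts) and with the gene total as offset (0.4279, 0 parts). With 1 library left out the Simes adjusted p ran from 9.7e-05 to 1 and the called parts from 0 to 3. RLE, a minimum of 10 counts in 3 libraries and limma-voom diffSplice kept it. Tpm3 was called without WT1 (0.01025, 1 part), with a range of 0.01025 to 1 and of 0 to 1 part over the 6 libraries left out. The cause was not tested in these cases.

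With only the longest part per gene, which is the called part 16 in Tpm1, the gene level log2 fold change was -0.48 for Tpm1 and -0.23 for Tpm2, the reverse of the sum over parts, and 0.40 for Tpm3. With shared parts only, Tpm3 was at 0.043. With 1 library left out the level ran from 0.022 to 0.14 for Tpm1, -0.067 to 0.14 for Tpm2, 0.027 to 0.19 for Tpm3 and -0.15 to -0.0503 for Tpm4, and 0 of these fits called a tropomyosin. The difference of Tpm2 in the pool, -0.03 points, was 0.0601 with summed parts, 0.14 with all parts, 0.11 with shared parts of at least 50 bases and 0.15 with exons 3, 4, 5, 7 and 8 only, the last pair chosen after seeing the data, and -0.22 to 0.30 with 1 library left out. With 1 library left out, the pairs in percentage points ran from -7.76 to -3.29 for Tpm1 exon 1b, -6.67 to -2.39 for exon 2a and 1.38 to 3.63 for exon 6a, from -2.48 to -0.82 for Tpm3 exon 9a and -0.96 to -0.28 for its middle last exon, and from -0.35 to 0.69 for Tpm2 exon 6b. In the pool Tpm1 ran from 1.011 to 2.698 and Tpm3 from 0.91 to 2.67 points. The share outside coding transcripts ran from -1.03 to -0.39 points for Tpm1 and -1.204 to -0.26 for Tpm3, and usage changes from 0.1966 to 1.27 for Tpm3 part 43, 0.19 to 0.37 for Tpm1 part 35 and -1.31 to -0.52 for Tpm2 part 5. For the Tpm2 share outside coding transcripts the range was -0.12 to 0.031. Inclusion relative to shared parts, in percentage points, ran with 1 library left out from -1.25 to 0.22 for Tpm1 exon 2a, -0.37 to 0.24 for Tpm1 exon 9d, -7.76 to 3.11 for Tpm2 exon 1a, -0.39 to 0.51 for Tpm2 exon 6b, -0.25 to 0.025 for Tpm3 exon 9a, -0.11 to 0.0073 for the Tpm3 middle last exon and -2.17 to 0.32 for Tpm4 exon 1b. With shared parts of at least 50 bases it was 0.0095 for Tpm1 exon 9d and 2.23 for Tpm3 exon 1b, and with summed parts 1.16 for the latter. The calls in the 6 gene lists, 4, were 0 with the replicate block, 15 with DESeq2, 2 with the longest part and 0 to 2 with 1 library left out.

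Libraries with the same number correlated at 0.11, -0.06 and 0.16 in their deviations from the group means, so the numbers were not taken to pair them. The replicate block called 82 genes against 666 without it. The covered fraction gave no share of a pair and was used as a check only. The share outside coding transcripts had its alternatives chosen after seeing the data.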
